A study of Mus musculus with 10 samples.

Results

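Expression of 55 genes of the cytochrome P450 (Cyp), aldehyde dehydrogenase (Aldh), alcohol dehydrogenase (Adh) and flavin monooxygenase (Fmo) families was examined in the mouse retinal pigment epithelium (RPE), with and without overexpression of Nrf2. The members were chosen by gene symbol and selected on their counts: protein-coding genes of these families were taken when they had at least 100 counts summed over the 10 libraries, and Cyp26a1, Cyp26b1, Cyp51, Aldh1a1, Aldh1a2 and Aldh1a3 were left out. Of 128 such family genes in a table of 47729 genes, 55 met this, namely 30 of 97 Cyp, 17 of 18 Aldh, 5 of 6 Adh and 3 of 7 Fmo genes. A further 32 family genes had no count in any library and 41 had 1 to 99 counts. The members just inside the limit were Cyp4x1, Cyp2b10 and Cyp2j13, with 105, 110 and 117 counts, and those just outside were Cyp2c23, Cyp17a1 and Cyp4f37, with 99, 94 and 76 counts. Cyp1a1 met the limit through the Nrf2 eyes alone (1041 counts there and 4 in control eyes), so it had to differ. Cyp2j13 and Cyp2b10 (38 and 23 counts in control eyes, 79 and 87 in Nrf2 eyes) also leaned on the Nrf2 eyes, and Aldh3b3 and Cyp4x1 (81 and 60 counts in control eyes, 43 and 45 in Nrf2 eyes) on the control eyes, so counts over the members are a description only.

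The study used wild-type CD1 mice at postnatal day 40, and each of 5 mice gave 2 libraries. AAV Best1 GFP was injected into the GFP control eye, while the other eye of each mouse, called the Nrf2 eye, received AAV Best1 Nrf2 along with AAV Best1 GFP. AAV is an adeno-associated virus that delivers a gene, the Best1 promoter limits expression to RPE cells, and Nrf2 is a transcription factor, delivered as the human coding sequence, that switches on genes against oxidative stress. Nrf2 eyes therefore carried an additional vector, with no balancing vector in the control eyes. The paper also gives the Nrf2 vector another capsid than the GFP vector, and a higher total dose in eyes that received both. Effects of capsid and dose cannot be told apart from those of Nrf2 in this design. RNA was collected from eyecups freed of retina and connective tissue, amplified from low input, and sequenced to 12298404 to 27310638 counts per library. Values below are CPM, read counts scaled to a common library size after TMM adjustment (normalised CPM). A count of 0 allows up to 3 counts, or 0.113 to 0.235 normalised CPM depending on the library, and intervals and floors cover counting error only.

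Cytochrome P450 enzymes are heme proteins, most of them in the endoplasmic reticulum, that insert oxygen into lipids, steroids and foreign compounds using electrons passed on by reductases and cytochrome b5. Flavin monooxygenases oxidise nitrogen and sulfur atoms of drugs and amines without heme. Alcohol dehydrogenases turn alcohols into aldehydes, and aldehyde dehydrogenases turn aldehydes into acids, which removes reactive products of lipid peroxidation and serves the breakdown of amino acids. The RPE digests lipid-rich photoreceptor outer segments in bright light and high oxygen, so it is a tissue in which such products arise. Nrf2 is best known for raising enzymes of glutathione, NADPH and quinone metabolism, while P450 genes of family 1 are classical targets of another factor, the aryl hydrocarbon receptor.

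The delivered gene and the tissue were checked first. Counts of Nfe2l2, the gene of mouse Nrf2 to which human reads can also align, rose in all 5 mice, from 89.5 ± 14.7 to 352 ± 57.1 normalised CPM (mean ± SD, n = 5 eyes each; log2 fold change 1.97, SE 0.11, adjusted p = 0.00030 in edgeR's quasi-likelihood test). All 10 markers of the RPE were detected, with a summed level of 21948 to 45976 normalised CPM in control eyes and 10310 to 30569 in Nrf2 eyes. This sum was lower in the Nrf2 eye of all 5 mice, and 6 of the 10 markers were called lower. The 12 markers of macrophages and microglia summed to 165 to 286 normalised CPM in control eyes and 339 to 1710 in Nrf2 eyes, with 11 called higher and none at 0 throughout. Cone and Mueller glia markers also summed lower in the Nrf2 eye of all 5 mice, from 17.2 to 486 (cones) and 1378 to 2017 (Mueller glia) in control eyes and from 15.6 to 114 and 1108 to 1983 in Nrf2 eyes, with no marker called. For Mueller glia the median log2 fold change of the 6 markers was positive (0.43) while their sum was lower. Rod markers summed to 40.3 to 19276 in control and 62.0 to 7358 in Nrf2 eyes, lower in the Nrf2 eye of 4 of 5 mice, with a median log2 fold change of -1.25 and none called. The parts of these shifts in the results below were not tested, and fewer cells of a type and less RNA per cell cannot be told apart in such bulk samples.

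The paired comparison of Nrf2 with GFP control eyes asked which of these oxidising enzymes responded to Nrf2. Cyp1a1 and Aldh7a1 were higher in Nrf2 eyes and Cyp4f17 was lower, and the other 49 of the 52 members with enough counts to be tested did not pass an adjusted p of 0.05. The tested members called, 3 of 52 (5.77%), stand beside 6.33% of all 16362 tested genes, of which 3.60% were called higher and 2.73% lower. The median log2 fold change of the 52 tested members was 0.02, against -0.01 over all tested genes. Fold changes were positive for 26 members and negative for 26, and 37 lay under 0.5 in size on the log2 scale. An unadjusted p under 0.05 was found for 12 of the 52 members and 3128 of the 16362 genes. In all 5 mice, 5 of the 52 were higher and 2 lower, beside 1511 and 1790 of all tested genes. The normalised CPM of the 5 Nrf2 and the 5 control eyes did not overlap for 3 members (Cyp1a1, Aldh7a1 and Aldh3b1, all higher), where 6.12% of all tested genes showed such a gap in either direction.

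**Figure D1:**
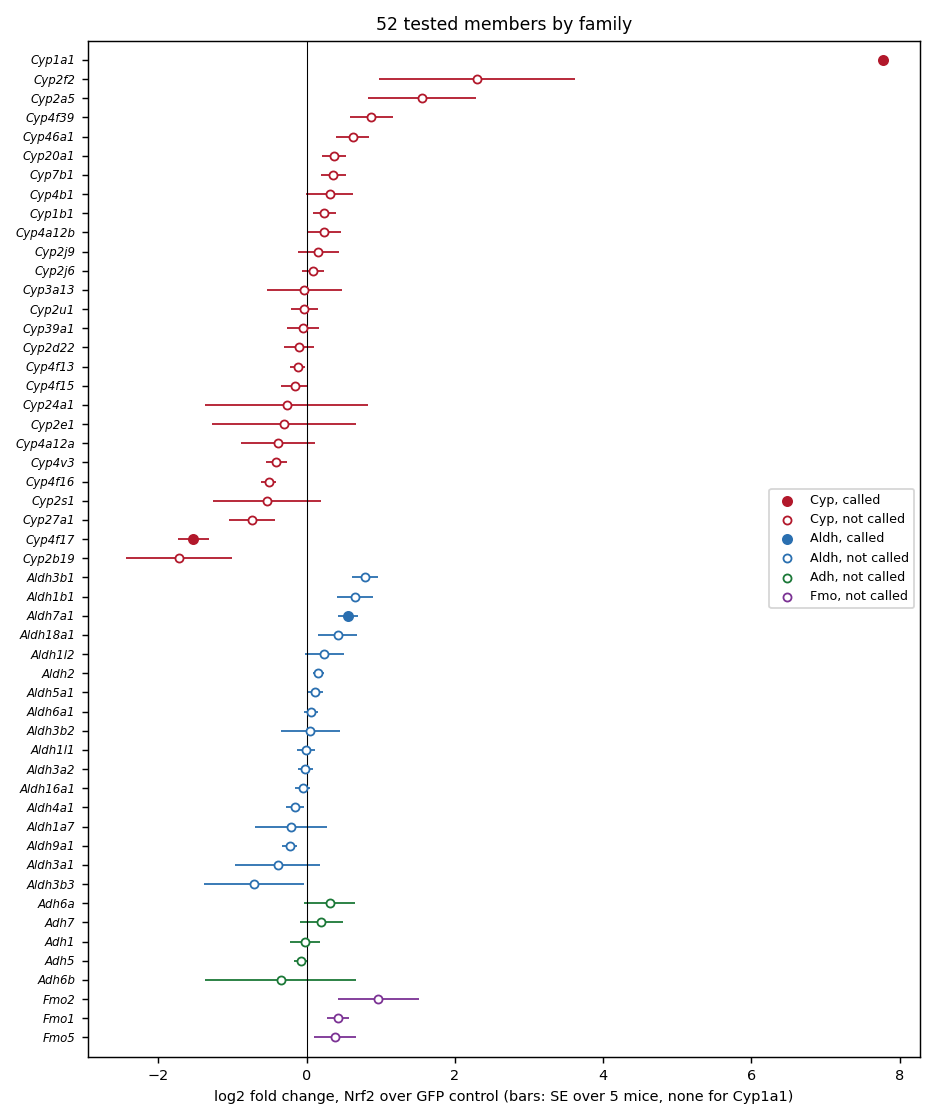
Fitted log2 fold change of Nrf2 over GFP control eyes (x axis) for the 52 tested members, ordered by family and size; bars are the SE over 5 mice (not drawn for Cyp1a1, whose SE is of another quantity) and filled points have an adjusted p under 0.05. Cyp1a1 lies alone at 7.77, and 37 of the 52 points lie within 0.5 of the zero line.

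Cyp1a1 encodes an enzyme that oxidises polycyclic aromatic compounds. It lies on chromosome 9 from 57687928 to 57703824 on the plus strand (mm10, ENSMUSG00000032315). Its counts in the control eyes of mice 1 to 5 were 0, 0, 0, 4 and 0, and in their Nrf2 eyes 169, 408, 183, 157 and 124. In normalised CPM the Nrf2 eyes had 7.999, 15.99, 7.27, 12.3 and 7.27, so a gene at or near 0 in the control eyes was clearly present in every Nrf2 eye. Which cells of these bulk samples carried it was not tested. The groups did not overlap, and the highest control library stood at 0.241 normalised CPM. Over the pooled libraries the rate was 241 times higher in Nrf2 eyes, with an exact 95% interval of 93.7 to 885 for counting error. Within mice 1 to 5 the difference in log2 CPM with a prior count of 2 was 6.30, 7.29, 6.17, 5.17 and 6.17 (SE 0.34). The fitted log2 fold change, with another prior count and so outside the reach of this SE, was 7.77 (adjusted p = 0.00153 in edgeR's quasi-likelihood test), a size that depends on the prior count because most control libraries were at 0. Without mouse 4, the only one with counts in its control eye, it was 10.62, and with rod, fibroblast or surface epithelium markers as a covariate it was between 10.99 and 11.28. The p is adjusted over all 16362 tested genes, but Cyp1a1 entered the members through its Nrf2 eyes, so its values here are a description and support nothing about the members. Per length, its mean level was 3.65 RPKM (normalised CPM per kilobase of exon) in Nrf2 eyes and 0.0173 RPKM in control eyes.

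Genes related to Cyp1a1 were read beside it. Cyp1a2, its neighbour on chromosome 9 and its closest relative, had 0 counts in all 10 libraries. Of the sequence of Cyp1a1, 3.43% of 50-base stretches also occur in another gene. Cyp1b1, the other family 1 member with counts and a gene mutated in congenital glaucoma, had 18.8, 13.6, 16.3, 10.1 and 6.13 normalised CPM in control eyes and 16.4, 15.8, 16.2, 14.6 and 9.96 in Nrf2 eyes. These ranges overlapped (log2 fold change 0.24, SE 0.16, adjusted p = 0.545). Ahr, Arnt, Ahrr and Tiparp, of the aryl hydrocarbon receptor system that drives Cyp1a1 in other tissues, were not called either. They do not cover all targets of the receptor, and its activity was not tested. Arnt and Ahrr had log2 fold changes of 0.04 (SE 0.15, adjusted p = 0.937) and -0.17 (SE 0.25, adjusted p = 0.853). The receptor gene Ahr had 36.8 ± 5.84 normalised CPM in control and 30.9 ± 6.67 in Nrf2 eyes (log2 fold change -0.26, SE 0.07, adjusted p = 0.213), and Tiparp, another target of the receptor, was at 0.40 on the same scale (SE 0.21, adjusted p = 0.267).

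Because Cyp1a1 and Cyp1a2 lie side by side and only Cyp1a1 had counts, the 250 bases before the RefSeq start of each are shown (GRCm38.p6), with the core of the dioxin response element, GCGTG, in capitals where it occurs on either strand. The Cyp1a1 window is chr9:57697363-57697612 on the plus strand, and the Cyp1a2 window is chr9:57683656-57683905 on the minus strand.
Cyp1a1: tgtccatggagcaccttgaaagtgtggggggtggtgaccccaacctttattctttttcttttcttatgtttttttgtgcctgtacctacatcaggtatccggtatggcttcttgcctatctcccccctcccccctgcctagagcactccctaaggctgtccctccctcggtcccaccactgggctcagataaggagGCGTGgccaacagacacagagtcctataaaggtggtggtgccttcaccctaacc
Cyp1a2: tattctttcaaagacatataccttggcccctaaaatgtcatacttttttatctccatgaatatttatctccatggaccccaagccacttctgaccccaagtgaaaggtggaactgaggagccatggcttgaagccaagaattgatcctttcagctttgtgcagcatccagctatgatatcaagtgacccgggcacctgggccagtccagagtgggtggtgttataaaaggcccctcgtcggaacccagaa
The Cyp1a1 window holds 1 match, whose first base is 54 bases before the start, and the Cyp1a2 window holds none. Such short words are frequent: in windows of 300 bases, from 250 before to 50 after the start, GCGTG was present in 32.4% of 32851 RefSeq windows and in 19 of 43 windows of the 39 members found in that table (44.2%). Matches are a description of the letters and not evidence of binding.

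**Figure D2:**
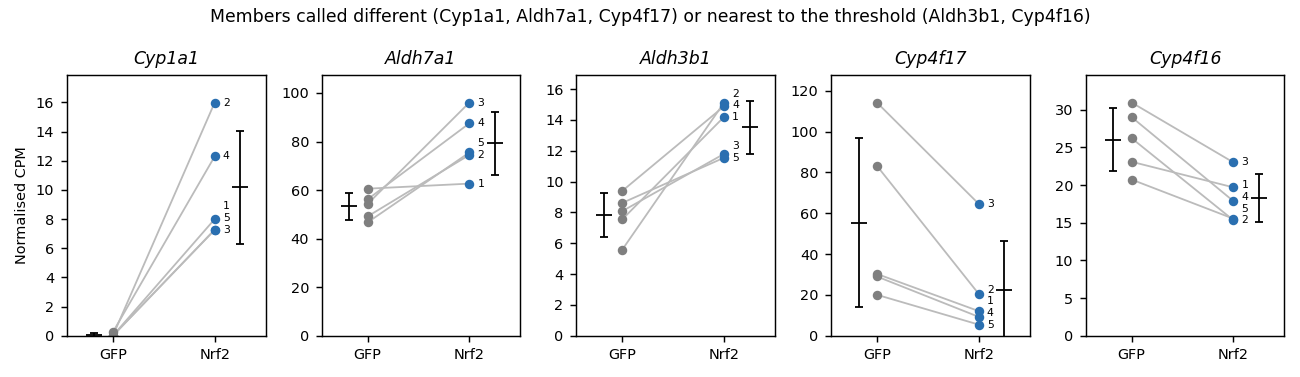
Normalised CPM (y axis, from 0, scaled per gene) of the 3 members that were called and the 2 nearest to the threshold, in the GFP control and Nrf2 eye of each mouse; lines join the eyes of a mouse, numbers are mice, and the horizontal marks with bars are the mean ± SD of 5 eyes (cut at 0). Cyp1a1, Aldh7a1 and Aldh3b1 show no overlap between groups, and Cyp4f17 and Cyp4f16 lie lower in the Nrf2 eye of every mouse while their groups overlap.

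The core of the antioxidant response element, TGACNNNGC, through which Nrf2 and its partners bind DNA, was searched in the same windows on both strands. It occurred in 12.4% of all windows and in 4 of the 43 member windows (9.30%), those of Adh6a, Aldh9a1, Cyp2j6 and Cyp4f39, so the Cyp1a1 window is without these letters. The 4 matches are printed with 10 bases on either side and the core in capitals (a core read on the other strand starts with GC), because they show which members carry this word. Of the 3 called members, a window was read for Cyp1a1 and not for Cyp4f17 or Aldh7a1, so matches were not compared with calls.
Adh6a, chr3:138313041-138313069, plus strand: ctcttcaggcTGACTCTGCcccaccttgg
Aldh9a1, chr1:167349894-167349922, plus strand: ttaattatgcTGACTAGGCccaagctact
Cyp2j6, chr4:96553618-96553646, minus strand: actctcagaaGCTTTGTCActtcctgcga
Cyp4f39, chr17:32452737-32452765, plus strand: ctgtcagactGCACTGTCAaagaagcgga
The log2 fold changes of these 4 genes were 0.31 (SE 0.34), -0.23 (SE 0.10), 0.09 (SE 0.15) and 0.87 (SE 0.29), with adjusted p-values of 0.637, 0.290, 0.829 and 0.243. No match in a window says only that these letters are not there, and elements farther from the start were not searched.

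Among the family 4 P450 genes, which hydroxylate fatty acids and eicosanoids at their far end, 9 of 10 members were tested and 1 was called. Cyp4f17 (chromosome 17, 32506050 to 32530143, plus strand, ENSMUSG00000091586) had 30.3, 83.2, 114, 29.0 and 20.1 normalised CPM in the control eyes of mice 1 to 5 and 12.1, 20.5, 64.5, 9.25 and 5.45 in their Nrf2 eyes. Every mouse was lower in its Nrf2 eye, but the spread between mice was wide and the groups overlapped. The fitted log2 fold change was -1.53 (SE 0.21, adjusted p = 0.00427 in edgeR's quasi-likelihood test). The call rests on the pairing: without the mouse as a block the log2 fold change was -1.30 with an adjusted p of 0.431.

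Its neighbour Cyp4f16 (chromosome 17, 32536558 to 32551798, plus strand) was next to the threshold. It had 23.1, 26.2, 31.0, 29.0 and 20.7 normalised CPM in control eyes and 19.7, 15.3, 23, 17.9 and 15.5 in Nrf2 eyes, lower in 5 of 5 mice with overlapping groups (log2 fold change -0.51, SE 0.10, adjusted p = 0.0576). Of its 50-base stretches, 17.4% also occur in other genes, mainly Cyp4f37, against 2.99% for Cyp4f17. Of the other Cyp4f members, Cyp4f13 and Cyp4f15 had log2 fold changes of -0.12 (SE 0.10) and -0.16 (SE 0.18). Cyp4f39, the gene whose human counterpart acts in the skin lipid barrier, had a log2 fold change of 0.87 at about 1 normalised CPM, and it was higher in all 5 mice.

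The most abundant P450 per length was Cyp4a12b, whose family makes hydroxylated arachidonic acid. It had 491, 445, 601, 650 and 923 normalised CPM in control eyes and 933, 608, 684, 662 and 676 in Nrf2 eyes. The groups overlapped widely, and the Nrf2 eye was lower in mouse 5 (log2 fold change 0.23, SE 0.23, adjusted p = 0.635). Cyp4a12b shares 49.4% of its 50-base stretches with Cyp4a12a, which was counted at only 6.63 ± 4.60 and 5.70 ± 4.19 normalised CPM, so the split of reads between the pair is uncertain. Cyp4v3, the counterpart of a human gene mutated in Bietti crystalline dystrophy of the RPE and retina, had 25.3 ± 6.49 normalised CPM in control and 18.7 ± 2.26 in Nrf2 eyes (log2 fold change -0.41, SE 0.14, adjusted p = 0.175). Cyp4b1 had a log2 fold change of 0.31 (SE 0.32) at under 11 normalised CPM.

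The 17 aldehyde dehydrogenase members were all tested, and 1 was called higher. Aldh7a1 encodes antiquitin, an enzyme of lysine breakdown that also oxidises lipid aldehydes. It had 60.6, 49.1, 54.3, 56.2 and 46.7 normalised CPM in control eyes and 62.7, 74.5, 96.1, 87.5 and 75.5 in Nrf2 eyes. The groups did not overlap, although the difference in mouse 1 was small, and per library total mouse 1 had 61.4 CPM in its control and 60.3 in its Nrf2 eye. The log2 fold change was 0.56 (SE 0.13, adjusted p = 0.0440 in edgeR's quasi-likelihood test). The call lies close to the threshold and was lost without mouse 2, 3, 4 or 5 (adjusted p from 0.105 to 0.126) and with rod markers as a covariate (0.51, adjusted p = 0.212). In the fits without mouse 2, 3, 4 or 5, which hold fewer samples, the log2 fold change was 0.53 to 0.59. Its exons share 300 bases with Phax on the opposite strand, which had 37.4 ± 6.15 and 38.0 ± 4.02 normalised CPM (log2 fold change 0.03).

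Aldh3b1, which oxidises medium and long chain lipid aldehydes (chromosome 19, 3913491 to 3929808, minus strand), missed the threshold. It had 7.55, 5.58, 8.08, 9.39 and 8.62 normalised CPM in control eyes and 14.2, 15.1, 11.8, 14.9 and 11.6 in Nrf2 eyes. Every Nrf2 eye lay above every control eye (log2 fold change 0.79, SE 0.18, adjusted p = 0.0566). It was called by DESeq2 (0.80, adjusted p = 0.00508) and in edgeR without the mouse block (0.78, adjusted p = 0.0262). Of its close relatives, Aldh3b2 had 190 ± 113 and 184 ± 77.2 normalised CPM (log2 fold change 0.05, SE 0.40), and Aldh3b3 was under 2 normalised CPM in every library. Aldh3b2 and Aldh3b3 share 23.5% of the 50-base stretches of Aldh3b2.

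Aldh2, the mitochondrial enzyme that clears acetaldehyde and lipid aldehydes, had 477, 356, 489, 491 and 361 normalised CPM in control eyes and 441, 393, 603, 535 and 453 in Nrf2 eyes, with overlapping groups (log2 fold change 0.16, SE 0.08, adjusted p = 0.523). Aldh6a1, of valine breakdown, had 181 ± 21.6 and 191 ± 40.2 normalised CPM (log2 fold change 0.06, SE 0.10). Aldh3a2, the fatty aldehyde dehydrogenase, stood at 64.3 ± 10.1 and 63.5 ± 10.3 normalised CPM, and its log2 fold change was -0.02 (SE 0.10). Among the 8 members of amino acid and folate metabolism, Aldh7a1 was the only one called, and the log2 fold changes ran from -0.23 for Aldh9a1, of carnitine synthesis, to that of Aldh7a1. Aldh1l1, Aldh4a1, Aldh5a1 and Aldh18a1 had values of -0.01, -0.16, 0.12 and 0.42, with SEs of 0.12, 0.12, 0.10 and 0.26. In low counts, Aldh1b1 and Aldh1l2 had values of 0.65 (SE 0.24, adjusted p = 0.376) and 0.24 (SE 0.26), and 1056 exon bases of Aldh1l2 overlap D10Wsu102e on the opposite strand. Aldh16a1 and Aldh1a7 had values of -0.05 (SE 0.10) and -0.21 (SE 0.48).

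Aldh3a1 (chromosome 11, 61207537 to 61218421, plus strand) had more counts than any other member, and it is known as an abundant soluble protein of the cornea. It had 2790, 5186, 4525, 1282 and 12633 normalised CPM in the control eyes of mice 1 to 5 and 6772, 3125, 1683, 1963 and 4239 in their Nrf2 eyes. It took 25.3% to 77.2% of all member counts in a library, so any sum over the members mainly follows this gene. The groups overlapped, and the Nrf2 eye was higher in mice 1 and 4 and lower in the others (log2 fold change -0.39, SE 0.57, adjusted p = 0.762). Leaving out a mouse gave -0.76 (without mouse 1) to -0.04 (without mouse 3). Members took 0.502% to 1.59% of a library's counts with Aldh3a1, and 0.259% to 0.408% without it.

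Aldh3a1 was set beside markers of the surface epithelium of the eye. Krt12, a keratin of the corneal epithelium singled out after values were seen, had 6310, 12446, 7805, 3.49 and 29901 normalised CPM in control eyes and 19286, 6476, 383, 1579 and 6763 in Nrf2 eyes, and the full list of 6 surface epithelium markers (none at 0 throughout, none called) summed to 9563 to 45191 in control and 12462 to 37295 in Nrf2 eyes. Aldh3a1 put the 5 libraries of each group in the same order as Krt12 did, which is a description, since Krt12 was picked with the values known. Of the 16361 tested genes other than Krt12, 50 (0.306%) had this order in both groups, and of the 52 tested members 1, Aldh3a1. The summed list was highest and lowest in the same control eyes as Aldh3a1 (mice 5 and 4), but it did not put the libraries of either group in the same order. Cyp3a13, the only family 3 member, ran from 2.05 normalised CPM in the control eye of mouse 4 to 149 in that of mouse 5 (log2 fold change -0.03, SE 0.51), and Cyp2s1 from 2.17 to 40.9 in the same libraries (log2 fold change -0.53, SE 0.73). Across the tested members, the control eye of mouse 5 was the highest library for 14 and the lowest for 10. The part of the surface epithelium in these levels was not tested beyond a fit with its markers as a covariate. In that fit Aldh3a1 had a log2 fold change of -0.65 and was not called (adjusted p = 0.363). Cyp1a1 and Cyp4f17 were called there and Aldh7a1 was not (0.60, adjusted p = 0.0548).

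**Figure D3:**
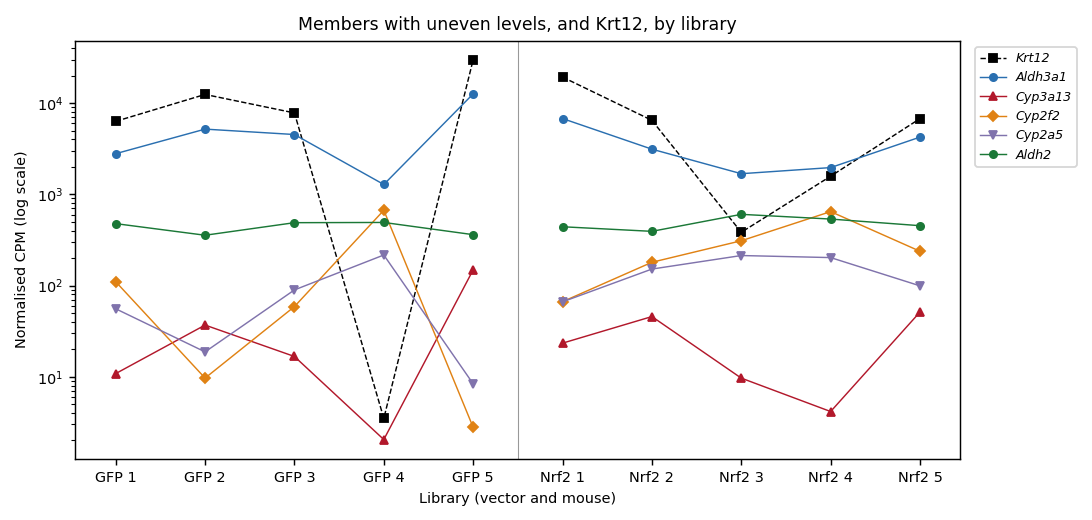
Normalised CPM (y axis, log scale) of 5 abundant or uneven members and of the corneal keratin gene Krt12 in each library, GFP control eyes left and Nrf2 eyes right, with 1 point per library and lines that only join the points of a group. Aldh3a1 has the order of Krt12, a marker picked with the values known, while the summed list of 6 markers has another order, Cyp2f2 and Cyp2a5 are lowest in the control eye of mouse 5, and Aldh2 stays between 356 and 603.

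The family 2 P450 genes, which oxidise drugs, arachidonic acid and small foreign molecules, had 9 of 11 members tested and none called. Cyp2f2, known for activating naphthalene in airway epithelium, had 110, 9.66, 58.8, 668 and 2.79 normalised CPM in control eyes and 66.5, 180, 310, 646 and 237 in Nrf2 eyes. Mouse 4 was high in both eyes and the groups overlapped, and the log2 fold change of 2.30 had an SE of 1.32 (adjusted p = 0.361). It was 0.76 without the mouse block, 3.26 with rod markers as a covariate, and 1.37 (without mouse 5), 1.63 (without mouse 2), 3.15 (without mouse 4) and 3.22 (without mouse 1) when a mouse was left out. Cyp2a5, the coumarin hydroxylase, was also highest in the control eye of mouse 4 among control eyes and lowest in that of mouse 5, with 55.6, 18.7, 89.5, 216 and 8.35 normalised CPM in control eyes and 66.2, 152, 213, 202 and 99.2 in Nrf2 eyes (log2 fold change 1.56, SE 0.73, adjusted p = 0.211, and 0.92 without the mouse block). Cyp2a5 shares 28.1% of its 50-base stretches with Cyp2a4, which had under 1 normalised CPM in every library.

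The remaining family 2 members were less abundant. Cyp2j6 and Cyp2j9, which form epoxides of arachidonic acid, had log2 fold changes of 0.09 (SE 0.15) and 0.16 (SE 0.28). Cyp2d22, Cyp2u1 and Cyp2e1 had values of -0.10 (SE 0.20), -0.03 (SE 0.18) and -0.30 (SE 0.97), the last at 3.46 ± 3.21 normalised CPM in control eyes. Cyp2b19, an epoxygenase of keratinocytes, had 2.34 ± 2.30 normalised CPM in control and 0.713 ± 0.653 in Nrf2 eyes, and its log2 fold change of -1.72 (SE 0.72, adjusted p = 0.245) did not pass the test. Cyp2j13, Cyp2b10 and Cyp4x1 were removed by the filter on low counts, and none exceeded 3.22 normalised CPM in a library.

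The 5 alcohol dehydrogenase members did not pass the test, and their log2 fold changes lay between -0.35 and 0.31. Adh1, which oxidises ethanol and retinol, had 312, 287, 426, 323 and 562 normalised CPM in control eyes and 486, 309, 342, 331 and 383 in Nrf2 eyes, overlapping fully (log2 fold change -0.02, SE 0.20, adjusted p = 0.976). Adh5, which clears formaldehyde bound to glutathione, had 177 ± 24.4 and 169 ± 32.4 normalised CPM (log2 fold change -0.08, SE 0.09). Adh7, a retinol-oxidising enzyme of epithelia, had 160 ± 65.7 and 171 ± 17.8 (log2 fold change 0.20, SE 0.29). Adh6a and Adh6b had log2 fold changes of 0.31 (SE 0.34) and -0.35 (SE 1.02), and Adh6b was lowest in the control eye of mouse 4 and highest in that of mouse 5.

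P450 genes of sterol and steroid metabolism gave 4 tested members and no call. Cyp27a1, the mitochondrial enzyme that hydroxylates the side chain of cholesterol, had 30.5, 18.5, 19.6, 27.5 and 15.5 normalised CPM in control eyes and 20.8, 23.5, 10.8, 9.64 and 7.21 in Nrf2 eyes. It was lower in 4 of 5 mice, with overlapping groups (log2 fold change -0.73, SE 0.31, adjusted p = 0.176). Cyp46a1, the enzyme by which neurons turn over cholesterol, gave 0.62 (SE 0.22, adjusted p = 0.219), and Cyp7b1 and Cyp39a1, which act on oxysterols, had 0.36 (SE 0.17) and -0.05 (SE 0.22). Cyp24a1, which inactivates vitamin D, ran from 0 in the control eye of mouse 4 to 6.62 normalised CPM in that of mouse 5 (log2 fold change -0.27, SE 1.10). Cyp20a1, whose substrate is not known, had 9.80 ± 0.940 normalised CPM in control and 12.8 ± 2.57 in Nrf2 eyes (log2 fold change 0.37, SE 0.16, adjusted p = 0.328).

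The 3 flavin monooxygenases had positive log2 fold changes without a call. Fmo1 had 12.6, 26.8, 23.7, 26.1 and 20.9 normalised CPM in control eyes and 21.02, 46.6, 28.0, 32.1 and 21.5 in Nrf2 eyes. Each Nrf2 eye was above the control eye of its mouse, by little in mouse 5, and the groups overlapped (log2 fold change 0.42, SE 0.15, adjusted p = 0.156). Fmo2 had a value of 0.97 (SE 0.55, adjusted p = 0.297), with both eyes of mouse 4 high as for Cyp2f2, and Fmo5 had 0.38 (SE 0.28, adjusted p = 0.481).

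Genes of the reductases, cytochrome b5 proteins and ferredoxins that supply P450 enzymes with electrons, together with the heme-binding P450 associates Pgrmc1 and Pgrmc2, were examined next. Of these 12 genes, all tested, 3 were called higher and none lower (25.0% called, beside 6.33% of all tested genes), and the median of the log2 fold changes was 0.12. This list and the partner lists below were chosen with earlier results of these data known. Their shares are therefore a description only and cannot show an excess of calls. Cyb5a, cytochrome b5, rose from 140, 122, 167, 187 and 146 normalised CPM in control eyes to 488, 579, 484, 632 and 567 in Nrf2 eyes, with no overlap (log2 fold change 1.86, SE 0.12, adjusted p = 0.00048 in edgeR's quasi-likelihood test). Pgrmc1, a heme-binding membrane protein that associates with P450 enzymes, rose from 405 ± 38.2 to 1024 ± 98.3 normalised CPM (1.34, SE 0.07, adjusted p = 0.00098), and Cyb5r3, the reductase of cytochrome b5, from 182 ± 16.8 to 278 ± 22.8 (0.61, SE 0.05, adjusted p = 0.00866). Each of the 3 was higher in all 5 mice. Por, the main reductase of microsomal P450 enzymes, had 262, 219, 276, 230 and 228 normalised CPM in control eyes and 251, 262, 306, 305 and 258 in Nrf2 eyes, higher in 4 of 5 mice, and was not called (0.19, SE 0.08, adjusted p = 0.385).

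Transcription factors known to control P450 genes in liver were next compared, together with their partners and the receptor target Tiparp. Of these 23 genes 19 were tested, with 1 called higher and 2 lower (15.8%, beside 6.33% of all tested genes, again a description only). Hnf4a, a receptor of liver and epithelial genes, fell from 37.5 ± 9.60 to 13.03 ± 6.14 normalised CPM with no overlap (log2 fold change -1.61, SE 0.20, adjusted p = 0.00314). Ppara, a fatty acid receptor upstream of some family 4 P450 genes, fell from 8.47 ± 3.46 to 4.40 ± 2.47 in all 5 mice while its groups overlapped (-1.01, SE 0.09, adjusted p = 0.0204). A link of Ppara to the members was not tested. Cebpb rose from 65.8 ± 9.20 to 122 ± 20.6 (0.89, SE 0.07, adjusted p = 0.00226). These directions stand beside the lower level of the RPE markers and the higher level of macrophage and microglial markers given above.

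Enzymes that conjugate the products of P450 oxidation were the last group, and 17 of 41 were tested. Here 3 were called higher and 2 lower (29.4%, beside 6.33% of all tested genes, again a description only), and the median of their log2 fold changes was 0.04. Ugt1a6b and Ugt1a6a, which attach glucuronic acid to phenols, rose from 16.2 ± 9.26 to 43.2 ± 7.03 and from 21.1 ± 9.79 to 46.2 ± 6.98 normalised CPM (1.54, SE 0.31, adjusted p = 0.0150, and 1.21, SE 0.26, adjusted p = 0.0199). Both were higher in all 5 mice, by little in mouse 5 (0.44 and 0.32 on the log2 scale). Their groups overlapped, as the control eye of mouse 5 (32.7 and 38.3) lay above the Nrf2 eye of mouse 3 (30.9 and 36.1). Genes of the Ugt1a cluster share their last exons, so the division of reads among them is uncertain. Ugdh, which makes the glucuronic acid donor, rose from 108 ± 8.14 to 153 ± 28.0 normalised CPM (0.49, SE 0.09, adjusted p = 0.0309). The sulfotransferases Sult1c1 and Sult1a1 fell, by 1.86 (SE 0.41, adjusted p = 0.0192) and 0.59 (SE 0.11, adjusted p = 0.0438) on the log2 scale, from 68.0 ± 24.7 and 23.8 ± 9.15 to 20.9 ± 12.99 and 16.1 ± 6.65 normalised CPM. Both were lower in all 5 mice, and the groups overlapped for Sult1a1 but not for Sult1c1.

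**Figure D4:**
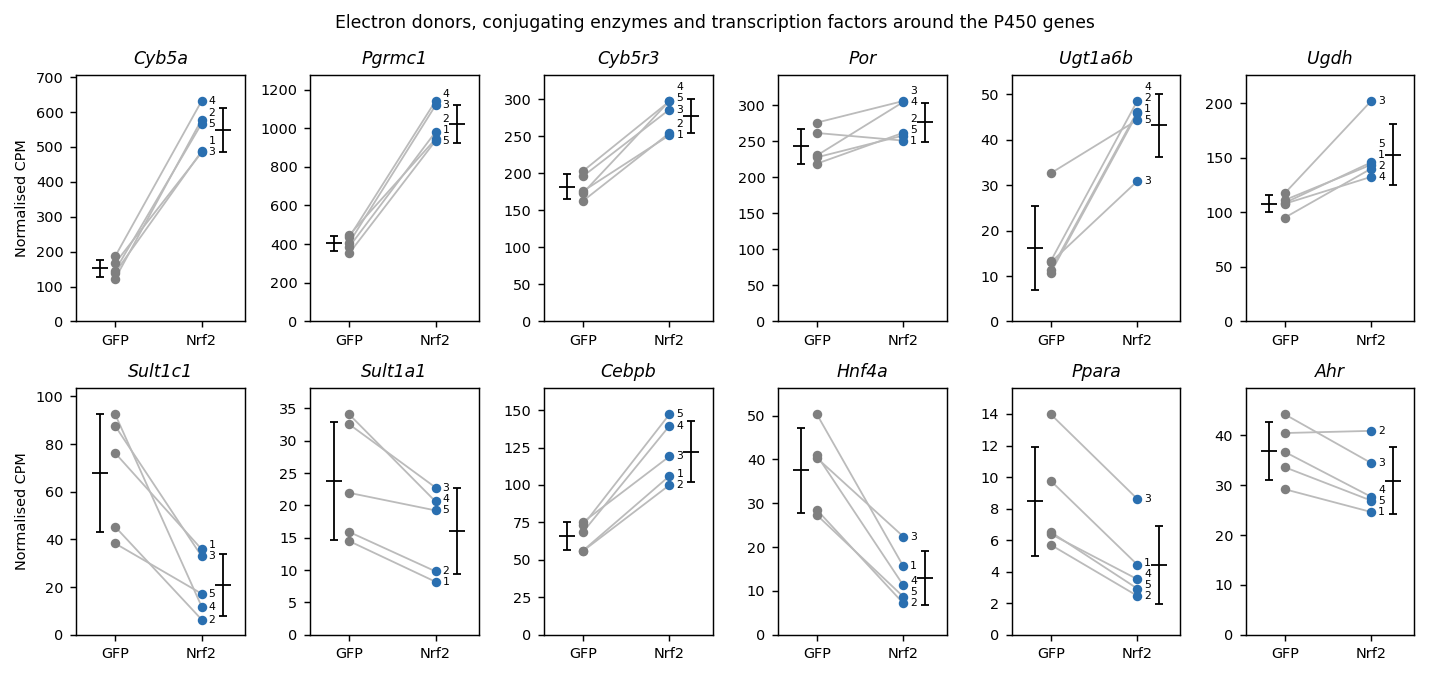
Normalised CPM (y axis, from 0, scaled per gene) of genes around the P450 enzymes in the GFP control and Nrf2 eye of each mouse, with lines joining the eyes of a mouse and marks for the mean ± SD of 5 eyes. Cyb5a, Pgrmc1, Cyb5r3, Ugdh and Cebpb separate the groups upwards and Sult1c1 and Hnf4a downwards, while Por, Ahr, Ugt1a6b, Sult1a1 and Ppara overlap.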

How the data were processed

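RNA of the RPE was sequenced from 10 eyes of 5 CD1 mice at postnatal day 40. The authors aligned reads with STAR to mm10 with Ensembl release 91 transcripts, counted them per gene with featureCounts and, in parallel, estimated abundance with Salmon 0.8.2. The deposited table holds raw counts, whole numbers for each Ensembl gene that the authors did not normalise. Which of these counts were deposited, the strand setting and filters were not given in the sources used here, so overlapping genes and close copies may share reads. The table had 0 columns of other samples. Symbols, positions and exon lengths came from GENCODE M21 (GRCm38, mm10), which held 47310 (99.1%) of the identifiers.

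Counts were tested over the whole table with edgeR 4.0.16 in R 4.3.3 (filterByExpr, TMM, quasi-likelihood F test, mouse as block, Benjamini-Hochberg threshold 0.05), and adjusted p-values come from this fit unless another is named. The script was tested on simulated data. For the SE, the difference in log2 CPM (prior count 2) between the eyes was taken in each of the 5 mice, and its SD was divided by the root of n. The labels give the animal of each eye, and this pairing was checked on the counts: deviations from the group means correlated with r of 0.19 to 0.71 (median 0.25) within mice and -0.42 to 0.28 (median -0.08) between mice. No libraries agreed within sampling noise (smallest chi-square per degree of freedom 34.5). The labels name 2 sequencing runs without assigning libraries to them, so run could not be compared. Library totals were 12298404 to 27310638 counts.

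The members and the lists of markers, electron donors, receptors and conjugating enzymes were chosen with earlier results of these data known. Members were named by rule when their adjusted p was under 0.05 or from 0.05 to 0.10, when they were among the 10 with the highest mean CPM, when they differed by more than 1 on the log2 scale one way in all mice without passing, or when they lay at the count limit or were filtered out. Partner genes were named when their adjusted p was under 0.05. All other genes named, among them the members given to complete each family and Por, Ahr and Tiparp, were chosen after values were seen. Promoter windows came from RefSeq (GRCm38.p6) and were matched by symbol for 39 of 55 members. Stretches of 50 bases were compared among transcripts of all genes. Alternatives were DESeq2 1.42.0, DESeq2's size factors, no filter, a mean of at least 50 counts, no block, marker covariates, a test against a fold of 1.5 and leaving out each mouse.

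Marker lists of other cell types were read from the same fit. Summed normalised CPM ran from 430 to 1338 for fibroblasts, 24.4 to 127 for endothelium, 218 to 1552 for pericytes and smooth muscle, 6.39 to 686 for skeletal muscle, 233 to 401 for Schwann cells and melanocytes (1 of 4 tested genes lower), 196 to 1779 for red blood cells and 0.196 to 0.805 for adipocytes. Apart from that gene, none in these lists was called. The other lists are given with the results.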

Additional observations from a re-analysis of the deposited data

Results flagged for a closer look

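Values that stood apart were sought in 30 groups of 5 eyes, over the named members. A library was picked where its gap to the nearest other exceeded 0.71 of the range of its group (Dixon's 95% limit), and 2 groups showed one, where chance gives about 1.5.

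Cyp4a12b had a log2 normalised CPM of 9.87 in the Nrf2 eye of mouse 1, against 9.25 to 9.42 in the other Nrf2 eyes. The gap was 0.726 of the range, close to the limit, and the control eye of the same mouse had 491 normalised CPM, within the range of the control eyes.

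Cyp1a1 had a log2 normalised CPM of -1.54 in the control eye of mouse 4, against -3.29 in the other control eyes. This is a difference between 4 counts and 0 counts, and a count of 0 allows up to 3. The Nrf2 eye of mouse 4 had 12.3 normalised CPM.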

How the results depend on the processing

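Cyp1a1 was called higher in every alternative run (log2 fold change 7.43 to 11.28), but it met the count limit through the Nrf2 eyes alone, so this is a description. DESeq2, which tested 19309 genes, called 1823 genes, 1035 of them shared, and 4 members higher (Cyp1a1, Aldh7a1, Aldh3b1 and Cyp2b10, the last with 23 counts in all control eyes and 87 in Nrf2 eyes, so that it met the count limit mainly through the latter) and 2 lower (Cyp4f17 and Cyp4f16). Without the mouse block 755 genes were called (687 shared), 3 members higher, with Aldh3b1 added, and 0 lower, since Cyp4f17 was lost (-1.30, adjusted p = 0.431). It changed no other call among the named members. With rod markers as a covariate 440 genes and 1 member higher were called, against a fold of 1.5, which asks for more by construction, 443 and 1, and with surface epithelium markers, a covariate chosen after seeing the data, 932 and 1. Without mouse 1, 2, 3, 4 or 5 the genes called ranged from 584 to 857, falling by more than 1.5 times without mouse 2, 4 or 5 (584, 613 and 683), and 1 to 2 members were higher, with Aldh7a1 called only without mouse 1. Fewer samples enter those fits. Cyp4f17 was called in each of them, and the median of the members, 0.021 as reported, ran from 0.003 to 0.127 there and was -0.040 with rod markers and -0.007 without the block. Some named members near 0 changed sign without being called: Adh1 with fibroblast markers as a covariate (0.01) and across fits without a mouse (-0.15 to 0.12), Aldh3b2 without the block (-0.04), with rod (-0.11) and surface epithelium markers (-0.13) and without a mouse (-0.16 to 0.35), Aldh6a1 with rod markers (-0.01), and Adh5 without a mouse (-0.13 to 0.02). Among the other tested members, 6, 3, 7, 3 and 6 changed sign without mouse 1, 2, 3, 4 and 5. DESeq2 and the fit without the block each changed 1 sign there, and rod and surface epithelium markers 2 each. None of these other members was called in any of the fits. The cause was not tested. Size factors, no filter and a mean of at least 50 counts changed no call among the members. Depth limits members under about 1 normalised CPM.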
